A study of Mus musculus with 16 samples.

Results

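Interferon beta (Ifnb1), its receptor and the interferon regulatory factors (IRFs) were followed in RNA-seq of bone-marrow-derived macrophages (BMDM) as 10 genes listed by name, namely Ifnb1, the receptor chains Ifnar1 and Ifnar2, and Irf1, Irf2, Irf3, Irf5, Irf7, Irf8 and Irf9. All 10 of the 10 listed genes were among the 9614 genes of the table. The 16 libraries came from C57BL/6 male mice aged 8 weeks, 3 of each genotype, here called A, B and C within a genotype. The WT mice carried LysM-Cre:NELF-B wt/wt and the NELF-B KO mice LysM-Cre:NELF-B fl/fl, so the Cre driver, which is active in myeloid cells, was present in both. BMDM were left untreated (U; 2 libraries per genotype, mice A and B), given LPS, a bacterial cell wall component, at 10 ng/ml for 1 hr (L; 3 libraries per genotype), or treated for 1 hr with LPS and 100 nM dexamethasone (Dex), a synthetic ligand of the glucocorticoid receptor (L+D; 3 libraries per genotype). NELF-B is a subunit of the negative elongation factor, which holds RNA polymerase 2 in a paused state near gene starts.

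In macrophages, LPS is sensed by the receptor TLR4. Its adaptor TRIF leads to phosphorylation of IRF3, which enters the nucleus and, together with NF-κB and AP-1, switches on Ifnb1 at a compact enhancer just upstream of the gene. Secreted interferon beta binds the receptor made of IFNAR1 and IFNAR2, and the JAK kinases there activate ISGF3, a complex that contains STAT2 and IRF9 and induces interferon-stimulated genes, Irf7 among them. IRF1 is itself induced early by inflammatory signals, whereas IRF3 is regulated mostly as a protein, so its mRNA need not report its activity.

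The sequence upstream of the 2 genes that LPS induced is shown first, because both are textbook targets of NF-κB. RefSeq windows (GRCm38.p6, the assembly that mm10 names) were found for all 10 genes, and each was searched on both strands over the 250 bases before the annotated start. The motifs were an IRF half-site (AANNGAAA) and the NF-κB consensus. Capitals mark the matches. The Ifnb1 window, chr4:88522795-88523044 on the minus strand, holds 3 IRF matches and, next to the last of them, 1 NF-κB match at positions -116 to -107 from the RefSeq start. The Irf1 window, chr11:53769764-53770013 on the plus strand, holds no IRF match and 1 NF-κB match at -13 to -4. The genes themselves span chr4:88522025-88522774 and chr11:53770014-53778374 in GENCODE vM21, and both are protein coding.
Ifnb1: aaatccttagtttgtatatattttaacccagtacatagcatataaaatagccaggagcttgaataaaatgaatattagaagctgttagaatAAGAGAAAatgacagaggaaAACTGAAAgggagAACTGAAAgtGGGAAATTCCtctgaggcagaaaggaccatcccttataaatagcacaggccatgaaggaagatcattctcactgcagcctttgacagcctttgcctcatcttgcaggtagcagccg
Irf1: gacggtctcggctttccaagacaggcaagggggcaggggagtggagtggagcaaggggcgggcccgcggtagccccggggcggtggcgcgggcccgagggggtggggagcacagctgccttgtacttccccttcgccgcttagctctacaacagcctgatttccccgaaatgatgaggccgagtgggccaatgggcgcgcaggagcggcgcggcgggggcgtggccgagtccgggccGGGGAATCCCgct
At least 2 IRF matches, which may overlap, were present in 4.2% of 32851 annotated windows of this length and at least 1 in 21.3%. An NF-κB match was present in 7.25%. Of the 10 genes, 2 (Ifnb1 and Irf2) held an IRF match in any of their windows and 3 held an NF-κB match (Ifnb1, Irf1 and Irf2). In Irf2 the 2 IRF matches overlap. A match describes the letters and not a bound site.

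The libraries held between 25030999 and 49730049 reads on genes, and values are log2 CPM (reads of a gene scaled to the size of the library) as deposited. The table's floor of -5.15 marks 0 reads. The untreated WT library of mouse A stood apart (r of 0.830 to 0.909 with the others across genes, against 0.924 to 0.993 among the other 15). For the 10 genes, results that rest on it are given with and without it or mouse by mouse. For other listed genes they are given with it only. Nelfb itself ranged from 5.59 to 6.21 in the WT and from 3.27 to 4.38 in the KO, so its mRNA was lower but not absent. Of 7 listed macrophage markers 6 were in the table, and Adgre1 was not. Csf1r (11.4 to 11.9), Cd68 (10.0 to 10.9) and Itgam (9.31 to 10.8) were high throughout. Fcgr1 (7.4 to 8.8) and Mertk (6.2 to 8.0) were lower, and Lyz2, the gene whose locus carries LysM-Cre, was at 4.30 to 6.33. None of the listed markers of conventional dendritic cells or of T and NK cells was in the table, and 1 of 4 was for plasmacytoid dendritic cells (Tcf4, 5.87 to 6.90) and for B cells (Cd79b, 3.75 to 5.31). Since a macrophage marker was missing too, absence from the table does not show that a gene was not expressed.

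Before treatment Ifnb1 was at the limit of detection. It had 0 and 1 reads in the untreated WT libraries of mice A and B and 0 reads in both untreated KO libraries. After LPS, WT mouse A had 4.93 log2 CPM, mouse B 5.96 and mouse C 6.12 (922, 2092 and 2972 reads), and the same letters of the KO had 5.09, 6.76 and 5.02 (1148, 3145 and 1493 reads). With LPS and Dex it was 3.65, 4.80 and 4.96 in the WT and 3.42, 4.87 and 3.58 in the KO. Every treated library was far above every untreated one, and the LPS and L+D values overlapped narrowly between mice in the WT and not in the KO. Since untreated cells had almost no reads, the induction is given as a lower bound, with the untreated level set to 3 reads per library. In the WT, LPS left Ifnb1 at least 441-fold higher than untreated cells, and LPS with Dex at least 192-fold higher. For the KO the bounds were at least 613-fold and at least 193-fold higher. Ifnb1 levels with LPS were close, with geometric means of 50.9 CPM (WT) and 49.3 CPM (KO). With LPS and Dex they were 22.1 and 15.5 CPM. The bounds cannot be compared between genotypes, because the CPM that 3 reads stand for depends on library depth. It was 0.136 and 0.0977 CPM for the untreated WT libraries, against 0.0762 and 0.0846 CPM for the KO ones. These bounds cover counting error only, and in bulk RNA fewer responding cells and less RNA per cell cannot be told apart.

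**Figure D1:**
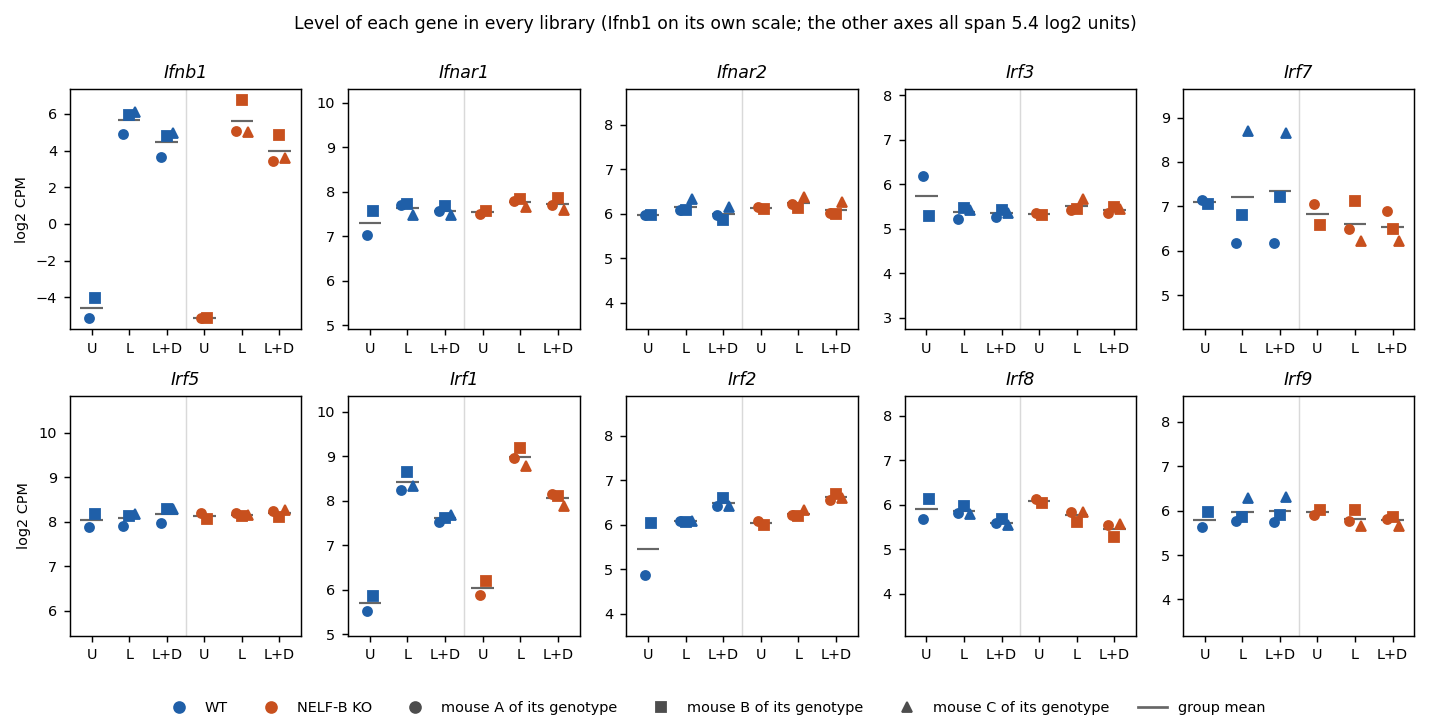
Log2 CPM of the 10 genes in each of the 16 libraries, by group (U untreated, L LPS, L+D LPS and Dex), with WT in blue, NELF-B KO in orange, symbols for the mice and a line at each group mean. Ifnb1 and Irf1 rise with LPS in both genotypes, while Irf7 of WT mouse C (8.70 and 8.66) sits above the other mice and Irf2 and Irf3 of the untreated WT library of mouse A lie away from the rest.

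Dex lowered Ifnb1 in each of the 6 mice. From LPS to L+D the log2 changes of WT mice A to C were -1.28, -1.16 and -1.17, a loss of 55.1% to 58.8% of the LPS level, while in the KO it was -1.66, -1.89 and -1.45, a loss of 63.3% to 73.1%. The fit that ignores the mouse did not call this change (WT -1.20 ± 0.55 (SE), adjusted p = 1.0; KO -1.67 ± 0.55, adjusted p = 0.452; limma with Benjamini-Hochberg adjustment over all genes). With the mouse as a block Ifnb1 fell in both genotypes (WT -1.20 ± 0.27, adjusted p = 0.0714; KO -1.67 ± 0.27, adjusted p = 0.0130). With the correlation within a mouse estimated instead, the WT gave an adjusted p = 0.143 and the KO 0.0192. Over all alternatives the adjusted p ran from 0.00345 to 1 in the WT and from 0.000221 to 1 in the KO.

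The Ifnb1 changes of the 3 KO mice all lay below those of the 3 WT mice. Their means differed by -0.47 on the log2 scale (exact permutation test, two-sided p = 0.1, the smallest that 3 against 3 mice can give). The difference in response was not called by limma (95% interval -2.15 to 1.22, adjusted p = 1.0; with the mouse as a block -0.47 ± 0.38 (SE), adjusted p = 1.0). Mice of the genotypes failed to overlap in their Dex change for 13% of all genes, and Ifnb1 was the 1 gene of the 10 for which they did.

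Irf1, an IRF that acts on interferon-stimulated and inflammatory genes, was the other gene of the 10 that LPS raised. Untreated WT mice A and B had 5.53 and 5.87 log2 CPM, and with LPS the WT libraries of A, B and C had 8.25, 8.66 and 8.33. In the KO it was at 5.90 and 6.19 untreated and at 8.97, 9.19 and 8.79 with LPS. The treated libraries did not overlap with the untreated ones in either genotype. Irf1 rose by 2.72 ± 0.17 (SE) on the log2 scale in the WT (6.58-fold; adjusted p = 1.68e-07) and by 2.94 ± 0.17 in the KO (7.67-fold; adjusted p = 6.58e-08) in limma. LPS thus raised 2 of the 10 genes in each genotype, Ifnb1 and Irf1, with none lower, while 6.01% of all genes passed as higher in the WT and 3.08% in the KO (adjusted p under 0.1 and over 1.5-fold). With 0 or 1 reads in each untreated library, Ifnb1 could pass a filter on expression only through the treated libraries. Its place in this count is therefore not independent of the filter, and the count is no support beyond Irf1. With the mouse as a block the background came to 11.8% (WT) and 4.04% (KO), and Irf2 joined Ifnb1 and Irf1 in the WT. Without the untreated WT library of mouse A the WT background was 3.09%, or 4.19% with the block, and Ifnb1 and Irf1 were the 2 genes of the 10 that passed in either case.

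Dex lowered Irf1 in each of the 6 mice as well. With LPS and Dex the WT libraries of A, B and C stood at 7.54, 7.62 and 7.68 and the KO ones at 8.15, 8.12 and 7.90, and within each genotype these values lay below all LPS values and above all untreated ones. Irf1 fell by 0.81 ± 0.15 (SE) on the log2 scale in the WT (1.75-fold; adjusted p = 0.0246, limma) and by 0.93 ± 0.15 in the KO (1.90-fold; adjusted p = 0.00689). It was the 1 gene of the 10 called lower with Dex in each genotype, against 0.322% of all genes in the WT and 0.447% in the KO (adjusted p under 0.1 and over 1.3-fold). With the mouse as a block 2 of the 10 were lower, Irf1 (adjusted p = 0.00308 in the WT and 0.00123 in the KO) and Ifnb1, against 1.22% and 1.45% of all genes (2.15% and 2.51% with the untreated WT library of mouse A left out as well). The WT call of Irf1 without the block was lost when the LPS library of mouse B (-0.68, adjusted p = 0.129), the L+D library of mouse A (-0.77, adjusted p = 0.127) or that of mouse B (-0.81, adjusted p = 0.118) was left out, whereas no single library ended it in the KO.

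**Figure D2:**
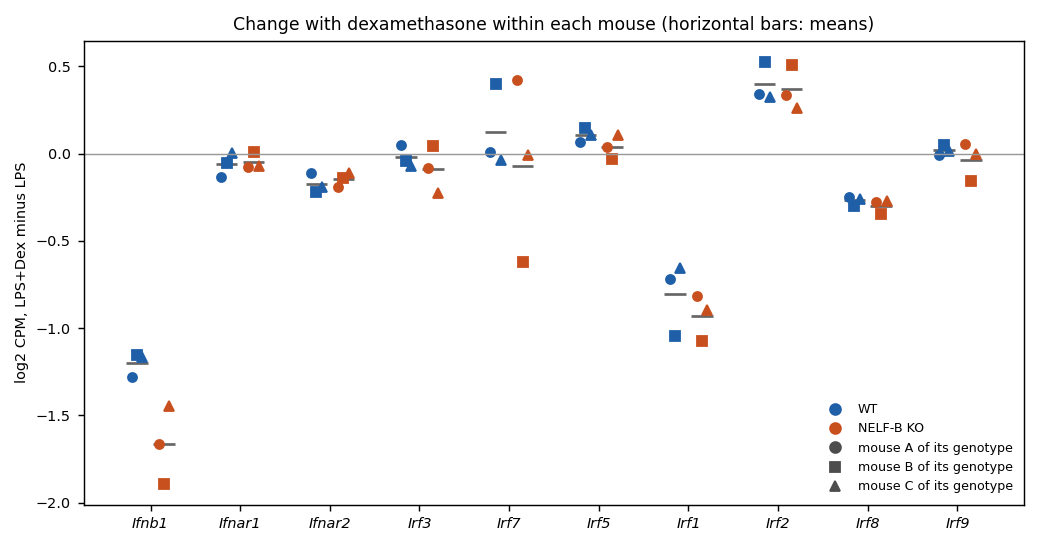
Change in log2 CPM from LPS to LPS and Dex in each of the 6 mice (points; WT blue, NELF-B KO orange; bars are means of 3 mice) for the 10 genes. Ifnb1 (-1.16 to -1.89) and Irf1 (-0.65 to -1.08) fall in every mouse, Irf8 and Ifnar2 are slightly below 0 in every mouse and Irf2 is above 0 in every mouse.

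Beyond Ifnb1 and Irf1, smaller shifts with Dex had the same sign in all 6 mice for 3 genes, none of which passed the test with or without the block. Irf8, an IRF needed for the monocyte and dendritic lineages, changed by -0.25 to -0.35 on the log2 scale, and Ifnar2 by -0.11 to -0.22. Irf2, an IRF that can compete with IRF1 for the same sites, changed by 0.26 to 0.53 in the other direction. In all, 4 of the 10 genes were lower in every mouse, where 10.4% of all genes were, and 1 was higher in every mouse, where 9.16% were. For Irf2 the limma estimate was 0.40 ± 0.21 (SE) in the WT and 0.37 ± 0.21 in the KO (adjusted p = 1.0 in each). Irf2 passed in the WT when the mouse was a block and the untreated library of mouse A was left out (0.40). In the KO Irf2 was called under no alternative, and its estimate of 0.37 lay just under the 1.3-fold limit. The KO minus WT difference in its Dex response was -0.03 ± 0.29 (SE). Over the alternatives Irf8 ran from -0.31 to -0.21 in the WT and from -0.37 to -0.20 in the KO. Ifnar2 ran from -0.25 to -0.09 and from -0.23 to -0.08. Both stayed under the 1.3-fold limit, so neither could be called at any adjusted p.

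The receptor chains were expressed before treatment and stayed near their levels. Ifnar1 ranged from 7.02 to 7.57 log2 CPM in untreated WT cells, from 7.47 to 7.72 with LPS and from 7.48 to 7.67 with LPS and Dex. In the KO it ranged from 7.51 to 7.57, from 7.65 to 7.84 and from 7.58 to 7.86. Ifnar2 lay between 5.85 and 6.37 in all 16 libraries. The LPS difference of Ifnar1 was 0.34 ± 0.15 (SE) in the WT (adjusted p = 0.175, limma) and 0.22 ± 0.15 in the KO (adjusted p = 1.0). It was above 0 in 4 of 4 mice, but the WT value of 0.69 in mouse A came from the untreated library that stood apart, against 0.15 in mouse B.

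Irf3, the factor that TRIF signalling activates, was at 5.22 to 5.47 log2 CPM in WT cells with LPS and at 5.43 to 5.66 in the KO, with L+D values of 5.27 to 5.43 and 5.34 to 5.48. Untreated values were 5.28 in WT mouse B, 5.34 and 5.30 in KO mice A and B, and 6.18 in WT mouse A. The other 15 libraries thus lay between 5.22 and 5.66, and the WT LPS estimate of -0.35 ± 0.20 (SE; adjusted p = 0.242, limma) turned to 0.10 (adjusted p = 0.794) without that library. Irf5, which acts downstream of MyD88, was at 7.88 to 8.28 in every library and differed by no more than 0.11 on the log2 scale in any treatment comparison.

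Irf2 showed the opposite displacement in the same library, with 4.86 in untreated WT mouse A against 6.03 in mouse B and 6.08 and 6.00 in the untreated KO mice. With LPS it was at 6.07 to 6.09 in the WT and at 6.19 to 6.33 in the KO. Its WT LPS difference was 0.63 ± 0.23 (SE; adjusted p = 0.115, limma), and it passed with the mouse as a block (0.65 ± 0.22, adjusted p = 0.0755). Over the alternatives that kept both untreated WT libraries the adjusted p ran from 0.0350 to 0.630. Without the untreated library of mouse A the difference was 0.05 (adjusted p = 0.862). Irf8 was at 5.69 to 6.13 untreated, 5.61 to 5.98 with LPS and 5.27 to 5.68 with LPS and Dex. Its LPS difference in the KO was -0.32 ± 0.14 (SE; adjusted p = 0.485) and reached an adjusted p of 0.0474 with the mouse as a block, below the 1.5-fold limit, with a range of 0.000106 to 1 over the alternatives.

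**Figure D3:**
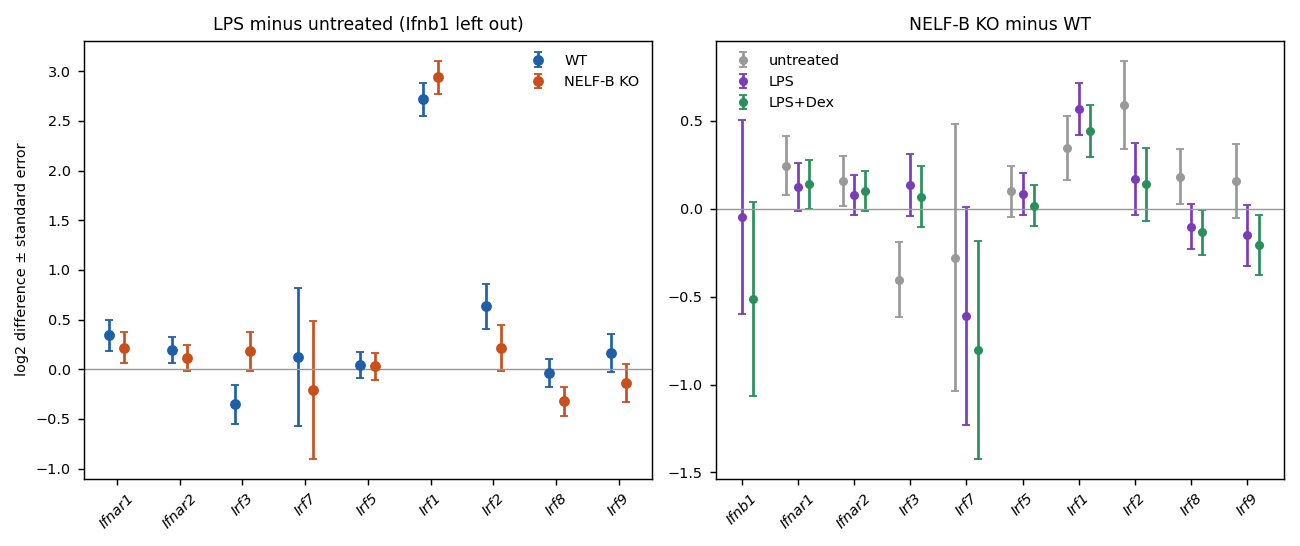
Limma estimates with standard errors on the log2 scale. Left, LPS against untreated in WT and NELF-B KO for 9 of the genes (Ifnb1 is given as a bound in the text), where Irf1 at 2.72 and 2.94 stands far above the rest. Right, NELF-B KO minus WT in each treatment (Ifnb1 in untreated cells left out), where Irf1 lies above 0 under LPS (0.57) and under LPS and Dex (0.44) and Irf7 has the widest errors.

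Irf7, the IRF that amplifies interferon output once interferon is present, varied more between mice than with any treatment. In the WT it was at 7.15 and 7.04 untreated in mice A and B, at 6.17, 6.80 and 8.70 with LPS in mice A, B and C, and at 6.18, 7.20 and 8.66 with LPS and Dex. In the KO it was at 7.06 and 6.58 untreated, 6.49, 7.12 and 6.23 with LPS, and 6.91, 6.50 and 6.22 with LPS and Dex. Mouse C of the WT was thus higher than every other library, in both of its treatments, and it has no untreated library. The WT LPS difference was 0.12 ± 0.69 (SE; adjusted p = 0.914, limma) and turned to -0.57 ± 0.29 with the mouse as a block (adjusted p = 0.138, the lowest over the alternatives, with 0.963 the highest). Within WT mice A and B it was -0.98 and -0.24, and within KO mice A and B -0.57 and 0.54. Irf9, the DNA-binding subunit of ISGF3, was at 5.63 to 6.02 in all libraries except those of WT mouse C, where it was at 6.29 and 6.30.

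Other genes of the interferon response were high in the same mouse. A rule set after these values were seen asked which genes were over 2-fold higher in WT mouse C than in WT mice A and B, both with LPS and with LPS and Dex. It took in 0.614% of all genes, 1 of the 10 (Irf7) and 11 of 17 listed early interferon-stimulated genes. Under LPS, Usp18, which restrains receptor signalling, was at 6.79 in mouse C against 4.71 in each of mice A and B. Zbp1, a sensor of nucleic acids, was at 6.42 against 3.61 and 4.11. Stat2 of ISGF3 was at 6.86 against 5.27 and 5.43. Ifnb1 of mouse C (6.12) was close to that of mouse B (5.96), and Irf1 of mouse C (8.33) lay between mice A and B. The L+D libraries showed the same order of mouse C above the others for each of these ISGF3-linked genes.

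**Figure D4:**
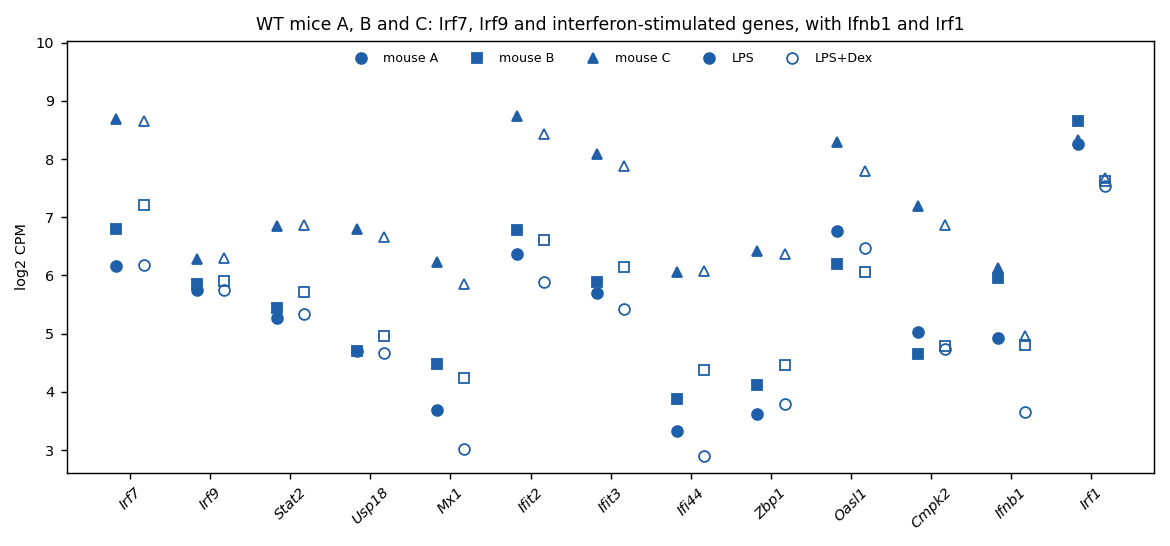
Log2 CPM in WT mice A (circles), B (squares) and C (triangles) with LPS (filled) and with LPS and Dex (open) for Irf7, Irf9, 9 other genes of the interferon response, Ifnb1 and Irf1. Mouse C is the highest for Irf7 (8.70 against 6.17 and 6.80 with LPS) and for the interferon-stimulated genes drawn, but not for Irf1 with LPS. The listed early interferon-stimulated genes drawn are from the 11 of 17 that passed the rule for mouse C. Those that did not pass it are not drawn.

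Levels of different genes were compared roughly, per kilobase of exon (the union of GENCODE vM21 exons). The union takes in every annotated transcript, and for Irf7 it covers the whole gene (3776 bases). The transcripts present may be shorter by differing amounts, so the order of the genes is approximate. Irf5 had the highest level of the 10 in untreated cells (WT 6.49 ± 0.22 and KO 6.59 ± 0.09 log2 CPM per kb; SD, n = 2). In untreated WT cells it was followed by Irf7 (5.18), Ifnar1 (4.72), Ifnar2 (4.23), Irf3 (3.94), Irf1 (3.71), Irf9 (3.37), Irf8 (3.08) and Irf2 (2.56), with Ifnb1 last (-4.18). The values of Ifnar2 and Irf3, Irf3 and Irf1, Irf9 and Irf8, and Irf8 and Irf2 overlapped between libraries. With LPS in the WT, Irf5 (6.54), Irf1 (6.42) and Ifnb1 (6.08) came first, with overlap from each to the next and from Ifnb1 to Irf7 (5.31). In the KO with LPS, Irf1 (6.99) stood above Irf5 (6.62) without overlap and Ifnb1 (6.04) came next. Dex took Ifnb1 down to 4.88 in the WT, between Ifnar1 (5.00) and Ifnar2 (4.25), with overlap on both sides, and to 4.37 in the KO, between Irf7 (4.63) and Ifnar2 (4.35), again with overlap. Reads over exons shared with other annotated genes cannot be assigned with certainty, and such exons make up 14.1% of exon bases for Irf5 (Tnpo3), 9.5% for Ifnar2 (Gm21970) and 1.2% to 3.4% for Irf1, Irf3, Irf7 and Irf9.

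Between genotypes, none of the 10 genes passed the test in untreated cells, with LPS or with LPS and Dex (adjusted p under 0.05 and over 1.5-fold in limma), where 0.0104%, 0.146% and 0.114% of all genes did. At an unadjusted p under 0.05 there was 1 of the 10 in each, Irf2 in untreated cells and Irf1 in the others. Of all 9614 genes, 1464, 665 and 762 were under it, so 1 of the 10 does not stand out. By voom in limma 0 were called in each. The Irf2 difference of 0.59 ± 0.25 (SE; adjusted p = 0.324) was 0.007 (adjusted p = 0.995) without the untreated WT library of mouse A, and 1.18 (adjusted p = 1.2e-05) with that library as the lone untreated WT sample, whose spread was then assumed to be that of the other groups. Irf1 was higher in every KO library than in any WT library under LPS and under L+D, by 0.57 ± 0.15 (SE) with LPS (95% interval 0.25 to 0.89; adjusted p = 0.170) and by 0.44 ± 0.15 with LPS and Dex (0.12 to 0.76; adjusted p = 0.296). In untreated cells its difference was 0.35 ± 0.18 (adjusted p = 0.333), and 0.175 without the untreated WT library of mouse A. The labels tie the letters between genotypes only in part. The untreated WT library of mouse B carries the same printed string as the KO libraries of mouse B, the libraries of mouse C of both genotypes carry numbers of the same kind, and mice A are those remaining. Comparing mice of the same letter, the KO excess of Irf1 was 0.71, 0.53 and 0.46 with LPS for letters A, B and C, and 0.62, 0.50 and 0.22 with LPS and Dex. With the letter as a block the adjusted p was 0.0344 with LPS, below the 1.5-fold limit, and 0.0627 with LPS and Dex. Over the alternatives it ran from 0.0344 to 0.646 and from 0.0627 to 0.778. Such a lack of overlap under LPS was met by 13.7% of all genes and by Irf1 and Irf2 of the 10, and under L+D by 17.8% of all genes and by Irf1 of the 10.

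No listed marker of another cell type passed between genotypes. The summed markers of fibroblasts (4 of 4 in the table) were at 99.7 to 125 CPM in the KO and at 64.4 to 111 CPM in the WT with LPS, and S100a8, the 1 of 6 neutrophil and precursor markers in the table, at 13.9 to 36.3 CPM against 5.46 to 20.5 CPM, with overlap in both. Their part in the Irf1 difference was not tested. For Ifnb1 the KO minus WT difference was -0.05 ± 0.55 (SE) with LPS and -0.51 ± 0.55 with LPS and Dex, with 95% intervals of -1.24 to 1.15 and -1.71 to 0.68, so changes of over 2-fold either way could not be resolved with LPS. The intervals were narrower for Irf5 (-0.17 to 0.34 with LPS) and Ifnar1 (-0.17 to 0.42) and widest for Irf7 (-1.95 to 0.73), whose estimate of -0.61 turned to 0.13 without the LPS library of WT mouse C.

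The LPS response and the Dex response were also compared between genotypes. None of the 10 passed either test (limma; 0% of all genes in each; 0 of the 10 at an unadjusted p under 0.05 and 0 by voom). For Irf1 the KO minus WT difference in the LPS response was 0.22 ± 0.23 (SE; adjusted p = 0.712) and in the Dex response -0.12 ± 0.21 (adjusted p = 1.0; 95% interval -0.58 to 0.33). Without the untreated WT library of mouse A the Irf1 difference in the LPS response was 0.393. With the untreated WT library of mouse B left out, the library standing apart was the only untreated WT one. The spread of untreated WT cells cannot be gauged from it, so calls among the 10 from that fit are not counted.

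Genes around this pathway were read from lists chosen by their known roles. Over all genes LPS raised 6.01% in the WT and 3.08% in the KO (11.8% and 4.04% with the block). It lowered 302 and 119 of the 9614 genes (876 and 204 with the block). Dex lowered 0.322% of all genes in the WT and 0.447% in the KO (1.22% and 1.45% with the block). It raised 64 and 80 of the 9614 genes (132 and 151 with the block). Of 13 genes of the arm from TLR4 over TRIF to IRF3, LPS raised 3 in the WT and 2 in the KO and lowered none. They were Cd14, which hands LPS to TLR4 (1.47 ± 0.14 (SE) in the WT and 1.66 ± 0.14 in the KO, log2), Ticam1, which encodes TRIF (1.17 ± 0.25 and 0.96 ± 0.25), and in the WT Tank, an adaptor of the kinase TBK1 (1.04 ± 0.23). With the block Tlr4 also passed as higher with LPS in the WT (adjusted p = 0.0848, limma). Dex changed 0 of the 13 in either genotype without the block, and with it Ticam2, the bridging adaptor of TRIF, was lower in both (-0.57 and -0.61). Of 7 genes encoding factors that bind the Ifnb1 enhancer, LPS raised 2 in each genotype, Jun of AP-1 (2.02 ± 0.22 and 2.26 ± 0.22) with Nfkb1 in the WT (0.72 ± 0.18) and Rela in the KO (0.61 ± 0.14). A call in 1 genotype only, as for Tank, Nfkb1 and Rela, does not show a difference between genotypes. For the difference in LPS response 0 of all 9614 genes passed. With the block Jun was also higher with Dex (0.52 and 0.54). The 7 of 8 listed genes of IFNAR signalling in the table gave 0 calls in the LPS and Dex comparisons of either genotype, and with the block 1 higher (Tyk2) and 1 lower (Stat2) for LPS in the WT. In that block fit 1132 of all 9614 genes were higher and 876 lower, so 1 of 7 each way does not stand out.

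Of 17 early interferon-stimulated genes, LPS raised 8 in WT and 7 in KO cells (9 and 8 with the block, with Oas1a lower in the WT). Over all genes LPS raised 6.01% and 3.08% (11.8% and 4.04% with the block). The list's median log2 difference was 1.51 in the WT, beside 0.02 over all genes, and 0.60 in the KO, beside -0.01. The largest changes in the WT were those of Cxcl10, a chemokine that NF-κB also induces (8.48 ± 0.30 (SE) in the WT and 7.73 ± 0.30 in the KO), Ccl5, another such chemokine (3.61 ± 0.70 and 3.89 ± 0.70), Rsad2, the antiviral viperin (2.94 ± 0.57 and 2.19 ± 0.57), and Oasl1 (2.92 ± 0.57 and 2.79 ± 0.57). The WT values include mouse C, described above. Dex changed 0 of the 17 in either genotype (limma), with median differences of -0.16 in the WT and -0.43 in the KO beside -0.007 and -0.0023 over all genes, and with the block Ifit1 was lower in the KO (-0.57, adjusted p = 0.0576). Of the other interferons and interferon receptors, 2 of 13 were in the table, Ifngr1 and Ifngr2, and 0 changed. Of 6 other IRFs and IRF partners 4 were in the table. LPS lowered Irf2bp1, a corepressor that binds IRF2, in the WT (-0.63 ± 0.17 (SE), adjusted p = 0.0464). With the block Irf2bp1 was also lower in the KO and Irf2bpl was lower with Dex in both genotypes (-0.66 and -0.68).

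The genes whose levels ran most like Ifnb1 over the 12 LPS and L+D libraries were the chemokine gene Ccl3 (r = 0.956), the protease gene Mmp13 (0.952), the cytokine gene Il6 (0.949), Stard5 (0.938) and the chemokine gene Ccl4 (0.937). Those most like Irf1 were Ier3 (0.976), Tmem132a (0.970) and Rasgef1b (0.969). These libraries share mice and treatments, so the correlations only describe which profiles were closest.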

How the data were processed

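RNA-seq of polyA RNA (TruSeq libraries, paired reads, HiSeq2500) was measured in 16 BMDM libraries. Per the study's methods and processing notes (CASAVA 1.8, FastQC and edgeR), the authors used CLC Bio Genomic Workbench to map reads to mm10 and to count those unique to the exons of a gene, applied the weighted trimmed mean scaling of edgeR and deposited log2 CPM for 9614 genes. The filter that left these genes, and whether strand was used, are not given in the sources used here. Relative levels after such scaling do not show a change in total RNA. The deposited p-values and FDR values hold the authors' comparisons and were not used. Values under 3 CPM were whole multiples of 1 read for 100% of values in every library (tolerance 0.25 read), which gave the depth. A floor of 3 reads is 0.0653 to 0.136 CPM. Bounds from it cover counting error only.

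Genotype, treatment and mouse were taken from the labels. All 16 libraries were fitted as 6 groups with limma 3.58.1 (lmFit, eBayes with trend; R 4.3.3) and adjusted over 9614 genes by the Benjamini-Hochberg method. The deposited unit is log2 CPM, so limma was used and no count test. The script was tested on simulated data. Figures and summaries used Python 3.11.15, pandas 2.3.3, scipy 1.17.1 and matplotlib 3.10.9. Deviations from the group means were shared between libraries of a mouse (r of 0.885 to 0.939 for L and L+D in the WT, 0.781 to 0.902 in the KO, and 0.448 and 0.865 for U and L), and the labels repeat a number for each mouse, so values with the mouse as a block are given where they change a call. Replicates are mice. In the main fit the p-values rest on the spread between mice of a group, with libraries of the same mouse treated as independent. With the mouse as a block they rest on the spread that is left within mice.

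The genes, lists and tests were chosen with earlier results of these data known. Named were all 10 genes, Nelfb, the called list genes with the largest change (up to 4 for LPS in the WT and up to 2 elsewhere) and the genes closest in profile to Ifnb1 (5) and Irf1 (3). Called genes also named with the block were added after their values were seen. Alternatives were the mouse block, the block of letters (mice A, B and C paired between genotypes, in part by printed label strings), only the libraries compared, WT mice A and B only, mean log2 CPM above 1, log2(CPM + 1), centring on the median gene, voom on the recovered reads, unadjusted p-values and each library left out. The block without the untreated WT library of mouse A was added after seeing the data.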

Additional observations from a re-analysis of the deposited data

How the results depend on the processing

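The LPS calls of Ifnb1 and Irf1 were made in both genotypes under every alternative run, and the Irf1 call with Dex in the KO likewise. Of the Dex comparison in the WT, 2 of the 10 genes passed with the replicate block, 3 with the block and without the untreated library of mouse A, and 0 with only the libraries compared or with WT mice A and B only. In the KO 2 passed with the block (290 of all genes), with its correlation estimated (267 of all genes) and at an unadjusted p under 0.01 (201 of all genes). Between genotypes in untreated cells 1 of the 10 passed at an unadjusted p under 0.05 and over 1.5-fold, as did 732 of all 9614 genes. Leaving out each library in turn, 2 to 5 of the 10 passed for LPS in the WT, 0 to 1 for Dex in the WT, 0 to 2 between genotypes in untreated cells and 0 to 4 for the difference in LPS response, and the highest of these came without the untreated WT library of mouse B, except for Dex. The block changed the Dex call of Ifnb1 in both genotypes and the LPS call of Irf2 in the WT, and no other call of the 10. The bound for Ifnb1 with LPS ran from 374-fold to 571-fold in the WT and from 414-fold to 755-fold in the KO.

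For genes that passed under at least 1 setting, directions that turned did so without the untreated WT library of mouse A. Among genes that passed under none, small differences also changed sign, and with the block the LPS difference of Irf7 in the WT turned from 0.125 to -0.571 and its difference in LPS response from -0.332 to 0.539. Leaving out each library in turn, the LPS difference of Irf3 in the WT ran from -0.804 to 0.0953, the Irf3 difference between untreated genotypes from -0.852 to 0.0475, and the difference in LPS response from -1.005 to 0.163 for Irf2 and from -0.400 to 0.157 for Ifnar1. With the block and without that library these were 0.184 for the Irf3 LPS difference and, for the difference in LPS response, 0.0978 for Irf2, -0.0422 for Irf3 and 0.127 for Ifnar1. Centring on the median gene changed the split of all genes called for LPS in the WT from 578 higher and 302 lower to 481 and 536. Over the alternatives the genes called ran from 145 to 4478 for LPS in the WT (880 in the report), 282 to 680 in the KO (415), 0 to 434 for Dex in the WT (95), 60 to 505 in the KO (123), 0 to 3911 between untreated genotypes (1), 0 to 314 with LPS (14), 0 to 337 with LPS and Dex (11) and 0 to 4666 for the difference in LPS response (0). The cause was not tested. Ifnb1 in untreated cells was the 1 gene of the 10 at the limit of depth.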
